A study of Rattus norvegicus with 12 samples.

Results

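In smooth muscle cells of the rat aorta, Tslp and Il15 measured higher after a thrombin receptor-activating peptide but not after thrombin, and Il1rl1 measured higher after both. Thrombin and the peptide were given in separate experiments, each with its own basal arrays. Agent and experiment therefore cannot be told apart where the responses to them are compared. The genes described here are 3 cytokine genes, Tslp, Il15 and Il33, and Il1rl1, which encodes the receptor for IL-33. They were read from the probe sets whose array annotation gives exactly 1 symbol, and that symbol is one of these 4. This rule finds 4 genes of 14217, on 6 probe sets of 31042: 1 for Tslp, 1 for Il15, 2 for Il1rl1 and 2 for Il33. Of these, 4 passed the floor on dim signals, which kept 18625 probe sets. The genes were picked for the way their changes after thrombin and after the peptide compare, so those changes, and the basal levels they are measured from, are given as a description without a test.

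The cells were primary cultures from the aorta of newborn rats, left overnight in serum-free medium with albumin. There were 12 arrays in 6 groups of 2. In the thrombin experiment, unstimulated cells were set against cells given 2 U/ml thrombin for 120 min. In the TRAP experiment the stimulus was 25 µM TRAP, a thrombin receptor-activating peptide, for 120 min. The other experiment used the same dose and time of TRAP in cells that first had 200 ng/ml pertussis toxin (PTX), which uncouples receptors from Gi proteins, for 24 h. The unstimulated arrays of that experiment carry no agent in their label, and it is unknown if they received PTX. The labels do not give the peptide's sequence, nor do they say that replicates are separate cultures, so the p-values reflect how far these samples scatter and no more, and that scatter may be technical. The design asks how the protease and the peptide act on transcription and what depends on Gi.

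TSLP and IL-33 are called alarmins: cytokines of epithelial and stromal cells that alert innate lymphoid cells, mast cells and dendritic cells. TSLP binds a receptor of CRLF2 and the IL-7 receptor chain and signals through JAK kinases and STAT5. IL-15 supports natural killer and memory T cells and is shown to them on IL-15 receptor alpha, to be read by the receptor's beta chain and the common gamma chain. IL-33 binds ST2, the product of Il1rl1, together with the accessory protein IL1RAP, and signals through MyD88 and IRAK kinases. Il1rl1 was first known as a gene switched on by serum and growth factors in fibroblasts, and it also makes a soluble decoy form of the receptor. Arrays of this kind do not measure protein or its release.

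The bases before the annotated start are shown for the 3 genes that were bright enough to follow, so that the letters can be set beside their responses. They come from RefSeq on build GRCr8, in which all 4 genes have an entry (2 starts each for Tslp and Il33), and each run is the 250 bases up to the first listed start. Capitals mark letters that match 1 of 5 motifs, searched on both strands: AP-1 (TGANTCA), CRE (TGACGTCA), NF-kB (GGG and CC with any 5 bases between), GATA (GATA) and the CArG box.
Tslp, chr18:24723740-24723989, + strand: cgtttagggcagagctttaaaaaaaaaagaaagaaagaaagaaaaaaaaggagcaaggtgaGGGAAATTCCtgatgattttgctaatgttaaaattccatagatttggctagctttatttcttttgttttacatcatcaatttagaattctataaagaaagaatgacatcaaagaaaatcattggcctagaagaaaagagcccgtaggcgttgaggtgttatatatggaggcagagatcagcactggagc
Il15, chr19:42544456-42544705, + strand: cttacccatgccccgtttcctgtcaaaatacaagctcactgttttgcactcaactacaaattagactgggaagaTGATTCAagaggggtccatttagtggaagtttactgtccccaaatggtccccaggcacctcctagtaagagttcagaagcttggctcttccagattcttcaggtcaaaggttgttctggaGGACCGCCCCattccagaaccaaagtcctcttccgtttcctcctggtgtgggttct
Il1rl1, chr9:50203388-50203637, + strand: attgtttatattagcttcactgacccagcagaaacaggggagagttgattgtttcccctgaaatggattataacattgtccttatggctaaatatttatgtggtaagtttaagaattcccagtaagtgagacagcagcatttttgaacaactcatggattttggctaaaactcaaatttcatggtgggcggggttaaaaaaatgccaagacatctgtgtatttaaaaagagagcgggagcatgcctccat
In Tslp the NF-kB letters GGGAAATTCC lay at positions -189 to -180 from the start. In Il15 the AP-1 letters TGATTCA lay at -176 to -170 and NF-kB letters on the other strand at -56 to -47. The Il1rl1 window held none of the 5. The windows of Il1rl1 and Il15 both lie inside the annotated genes, which span 50157326 to 50222888 on chromosome 9 and 42536160 to 42611349 on chromosome 19, so they precede a listed start and not the gene's outermost one. Among 33469 rat promoters of this length, 6.34% held the AP-1 letters, 42.3% the NF-kB letters, 55.9% GATA, 1.59% CRE and 1.5% a CArG box. These matches describe the letters only, and no binding was measured.

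Over the kept probe sets Pearson's r was 0.983 to 0.991 between replicates, and 0.913 to 0.941 between an array of the thrombin experiment and one of the TRAP experiments. The 8 arrays of the TRAP experiments fall into 2 sets that cut across the labels. Saa3, an acute-phase gene, had signals of 15.9 to 22.8 on the basal pair of the TRAP experiment, on replicate 2 of TRAP and on replicate 1 of TRAP after PTX, and of 222.5 to 420.9 on the other 4. Lcn2 split these arrays alike, at 20.2 to 32.8 and 275.2 to 360.2. On the arrays of the thrombin experiment Lcn2 was high (433.1 to 565.6) and Saa3 low (33 to 39.8). Replicate 1 of TRAP and replicate 1 of TRAP after PTX therefore do not match their basal pairs in either gene. The cause was not tested, and responses to TRAP are also given with this mismatched pair left out. Of smooth muscle genes, Acta2, Tagln and Cald1 had mean signals of 7220, 5560 and 7420, while Myh11 and Des were at 50.7 and 28.8. The summed signal of 9 smooth muscle genes was 15580 to 17200 on the basal arrays of the thrombin experiment. It was 22180 to 25820 in basal TRAP and 22610 to 25990 in basal TRAP after PTX. Of 6 fibroblast genes, 5 passed the floor. Mfap5, Dcn, Gsn, Pdgfra and Lum were at 5430, 1720, 1330, 239 and 98.2, while Dpt, at 16.5, was below it. The summed signal of all 6 was 6194 to 6500 in basal thrombin, 9836 to 10550 in basal TRAP and 10050 to 10110 in basal TRAP after PTX.

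**Figure D1:**
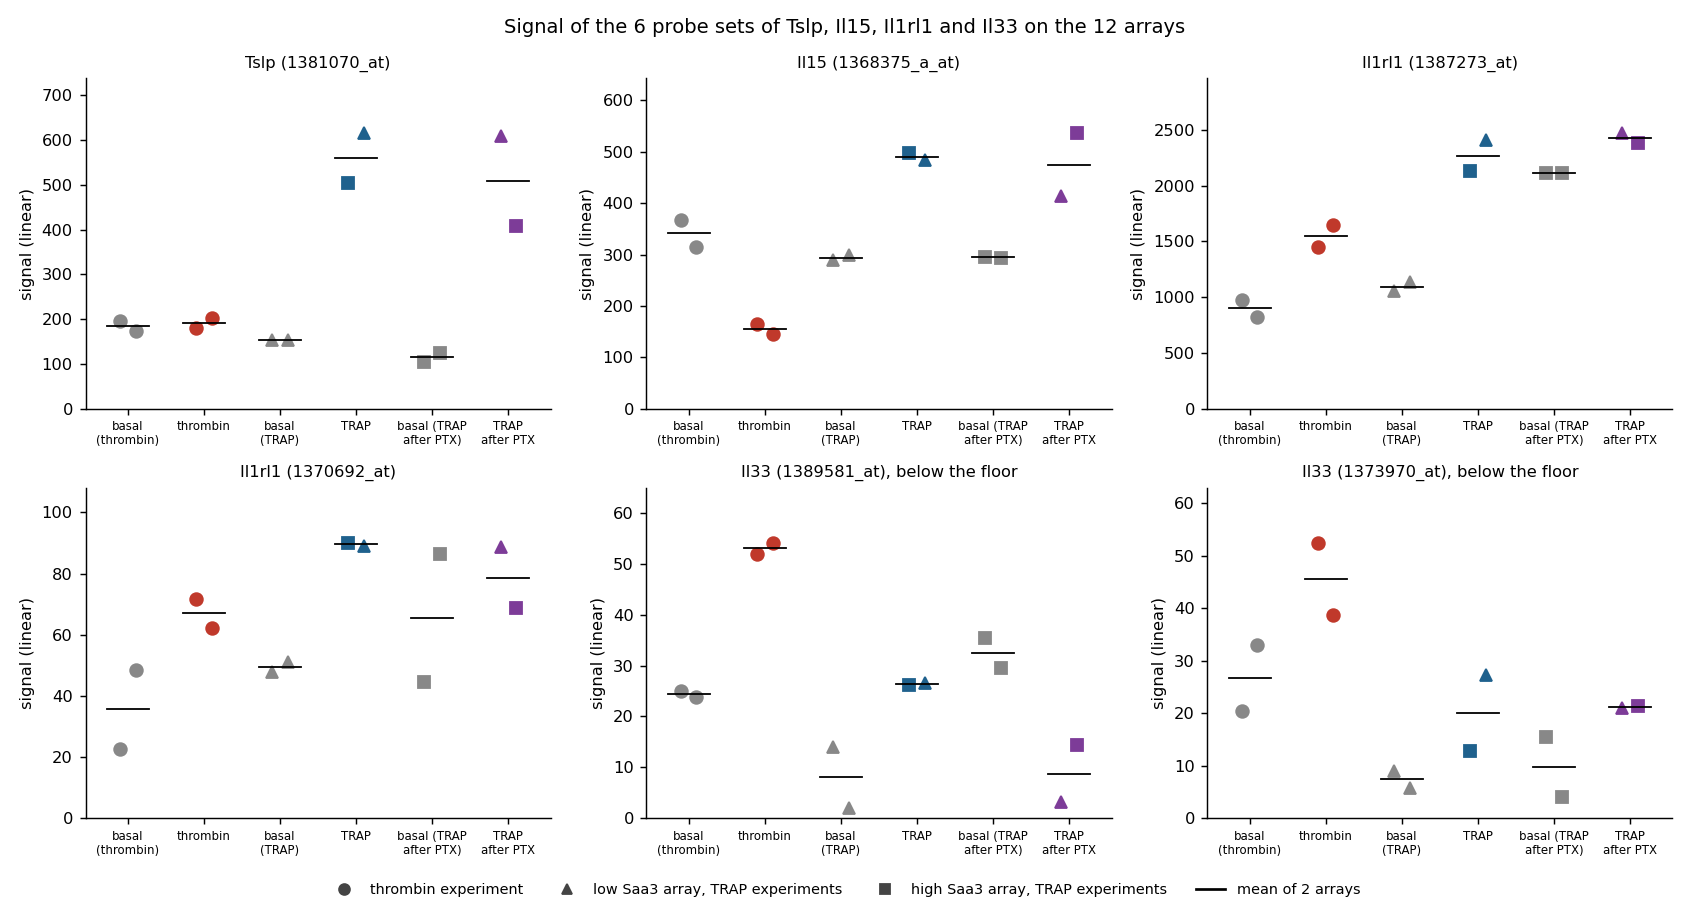
Signal on a linear scale (y axis) of the 6 probe sets on each of the 12 arrays, by group (x axis). Points are single arrays, lines are means of 2, and triangles and squares mark the low and high Saa3 arrays of the TRAP experiments. Il15 is at 145.5 and 164.2 with thrombin and at 413.5 to 535.7 with TRAP, while Tslp stays at 180.7 and 202.6 with thrombin.

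Tslp measured higher after TRAP with and without PTX, and not after thrombin. In the thrombin experiment its signal was 195.8 and 173.5 in unstimulated cells and 180.7 and 202.6 after thrombin. These groups overlap, and the log2 difference was 0.05 ± 0.17 (SE, n = 2 arrays per group, from the limma fit on log2(signal + 16)). In the TRAP experiment it was 152.4 and 154 before and 505.3 and 614.9 after the peptide, with every stimulated array above every basal one. That is a log2 difference of 1.76 ± 0.17. In the TRAP after PTX experiment the signal was 104.4 and 124.4 before and 609.8 and 408.5 after, a log2 difference of 1.99 ± 0.17. The groups again lie apart, and the stimulated arrays differ from each other more than in any other group of Tslp values.

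The thrombin response of Tslp minus its TRAP response was -1.71 ± 0.24 (log2). The TRAP responses with and without PTX differed by 0.23 ± 0.24, which is within the error. Tslp also moved with the array sets: in each stimulated TRAP group the high Saa3 array had the lower signal, 505.3 against 614.9 and 408.5 against 609.8. With the 2 mismatched arrays left out, the TRAP response was 1.90, the TRAP after PTX response 1.71 and the difference between them -0.19, so its sign turned. In order of mean signal the groups ran from basal TRAP after PTX (114.4 ± 14.1, SD) through basal TRAP (153.2 ± 1.13), basal thrombin (184.6 ± 15.8) and thrombin (191.6 ± 15.5) to TRAP after PTX (509.2 ± 142) and TRAP (560.1 ± 77.5). Basal thrombin and thrombin overlap, as do both stimulated TRAP groups.

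Il15 was lower after thrombin and higher after TRAP. Its signal was 367.9 and 314.6 in unstimulated cells of the thrombin experiment and 164.2 and 145.5 after thrombin, a log2 difference of -1.06 ± 0.13. Both thrombin arrays lie below every other array of the series for this gene. Before TRAP it was 289.9 and 298.6, and after TRAP 497.5 and 483.4, a log2 difference of 0.71 ± 0.13. In the TRAP after PTX experiment it was 294.7 and 294 before and 413.5 and 535.7 after, a log2 difference of 0.65 ± 0.13. The stimulated arrays of both TRAP experiments lie above all 6 unstimulated arrays.

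The thrombin response of Il15 minus its TRAP response was -1.77 ± 0.18. The TRAP responses with and without PTX differed by -0.06 ± 0.18. With the 2 mismatched arrays left out, the TRAP response was 0.69 and the TRAP after PTX response 0.83. In order of mean signal Il15 ran from thrombin (154.8 ± 13.2, SD) through basal TRAP (294.2 ± 6.15), basal TRAP after PTX (294.4 ± 0.495) and basal thrombin (341.2 ± 37.7) to TRAP after PTX (474.6 ± 86.4) and TRAP (490.4 ± 9.97). The basal groups of both TRAP experiments overlap, and so do both stimulated TRAP groups.

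Few probe sets were called in opposite directions with thrombin and TRAP. Such a count needs calls in both responses with 2 arrays per group, so it does not measure how many probe sets moved oppositely. Calls for lower with thrombin and higher with TRAP (limma, Benjamini-Hochberg adjusted p under 0.05 in both responses) fell on 5 of 18625 probe sets (0.0268%). This number includes that of Il15, which was chosen on these responses, so for Il15 it is no test. The others with a symbol were Irf2bpl (-0.81 with thrombin and 0.56 with TRAP, log2) and Ankrd50 (-0.52 and 0.57). The reverse was found for 3 probe sets (0.0161%), of which 2 belong to the transcription factor gene Klf7 (0.81 and 0.94 with thrombin, -0.71 and -0.66 with TRAP) and 1 to Palld (0.52 and -0.68), an actin-binding protein gene. The genes other than Il15 were named after their values were seen.

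**Figure D2:**
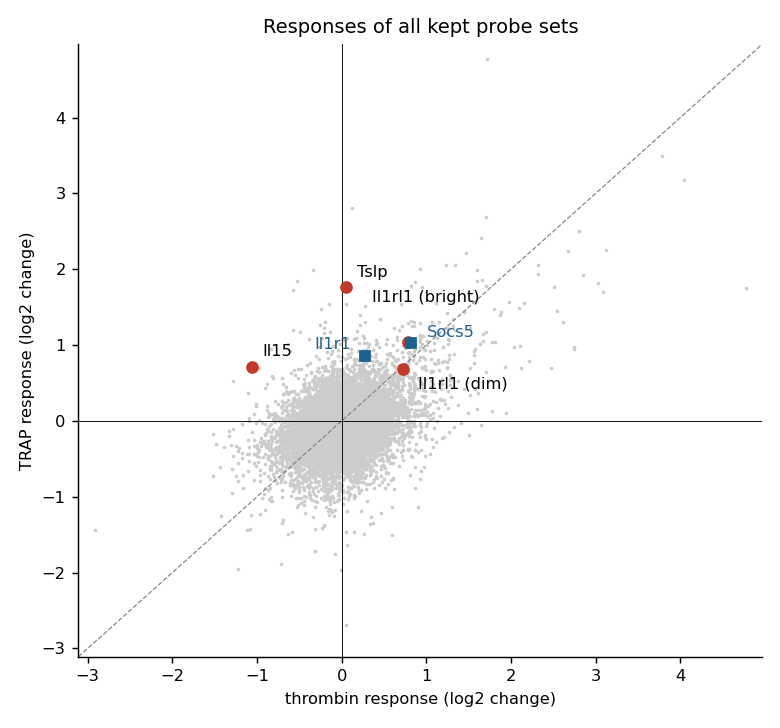
Log2 change of signal + 16 after thrombin (x axis) and after TRAP (y axis), each against its own basal arrays, for 18625 kept probe sets (grey), the 4 kept probe sets of Tslp, Il15 and Il1rl1 (red) and the pathway genes Il1r1 and Socs5 (blue). The dashed line marks equal responses. Il15 (-1.06 and 0.71) and Tslp (0.05 and 1.76) lie above the line, and the brighter Il1rl1 probe set (0.78 and 1.04) lies near it.

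Il1rl1, the receptor gene, was higher after both thrombin and TRAP, and its level before stimulation differed between experiments. Its brighter probe set had signals of 977.5 and 819.6 in unstimulated cells of the thrombin experiment and 1446.6 and 1648.6 after thrombin, a log2 difference of 0.78 ± 0.11. In the TRAP experiment it went from 1052.6 and 1138.2 to 2128.5 and 2404.9, a log2 difference of 1.04 ± 0.11. In both experiments the stimulated arrays lie above their basal arrays. The responses to thrombin and TRAP differed by -0.26 ± 0.15.

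Before TRAP in the PTX experiment the same probe set stood at 2116.4 and 2111.3 in cells labelled as unstimulated. This is above both thrombin arrays and all other basal arrays, and above basal TRAP by a log2 difference of 0.94 ± 0.11. After PTX and TRAP it was 2467.6 and 2384.1, so the response there was 0.20 ± 0.11, and this response minus the TRAP response was -0.84 ± 0.15. When the stimulated arrays of both TRAP experiments were compared directly, the difference was 0.10, with means of 2426 ± 59 (SD) after PTX and 2267 ± 195 without. The smaller response after PTX thus goes with a higher starting signal. Those basal arrays are also the high Saa3 arrays, and PTX in their cells is unknown, so the array set and PTX cannot be told apart in this basal difference. Among the stimulated arrays, where both sets occur, the high Saa3 arrays had 2128.5 and 2384.1 and the low Saa3 arrays 2404.9 and 2467.6.

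In order of mean signal the brighter Il1rl1 probe set ran from basal thrombin (898.6 ± 112, SD) through basal TRAP (1095 ± 60.5), thrombin (1548 ± 143) and basal TRAP after PTX (2114 ± 3.61) to TRAP and TRAP after PTX, and only the last 2 overlap. The dimmer probe set of the gene had signals from 22.5 to 90. It was at 22.5 and 48.6 before and 71.8 and 62.3 after thrombin, 47.9 and 51 before and 90 and 89.1 after TRAP, and 44.5 and 86.5 before and 88.7 and 68.6 after PTX and TRAP. Its log2 differences were 0.73 ± 0.27, 0.69 ± 0.27 and 0.26 ± 0.27. The groups of the last experiment overlap. The thrombin value was 0.36 without basal thrombin replicate 1, 1.11 without basal thrombin replicate 2 and 0.41 with a pseudocount of 64. The value after PTX and TRAP was -0.12 without replicate 1 of its basal pair and 0.64 without replicate 2, so its sign rests on single arrays. Both probe sets measured higher with thrombin and TRAP, and the higher basal signal of the PTX experiment lies within the replicate spread of the dimmer one. Which transcript forms of the receptor each probe set detects was not examined.

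**Figure D3:**
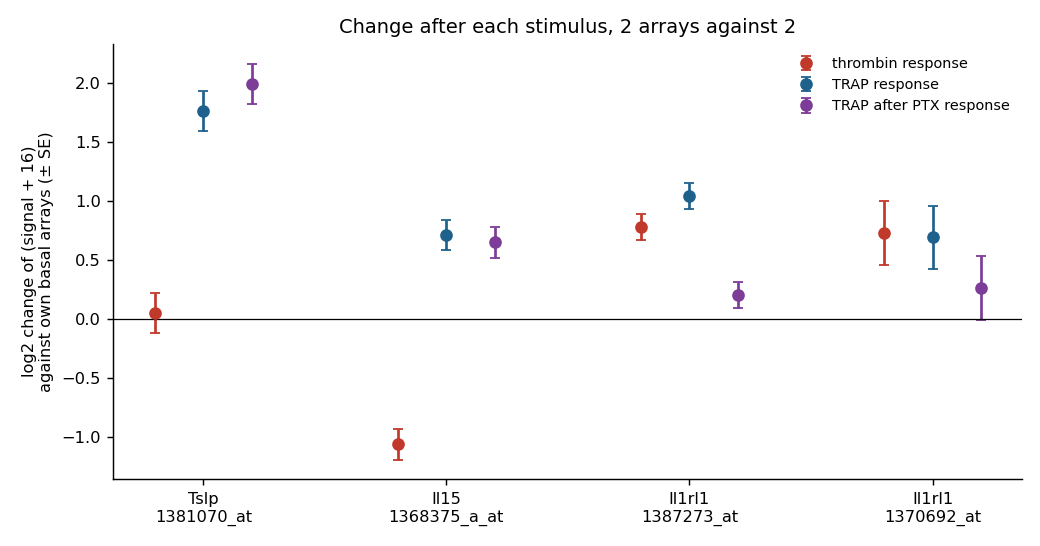
Log2 change of signal + 16 against the basal arrays of the same experiment (y axis) for the 4 kept probe sets (x axis), with standard errors from the limma fit and 2 arrays per group. Tslp and Il15 differ between thrombin (0.05 and -1.06) and both TRAP responses (0.65 to 1.99), and the Il1rl1 changes are smallest after PTX (0.20 and 0.26).

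Il33, the ligand of this receptor, was dim. Its probe sets had mean log2 levels of 5.26 and 5.15 over the 12 arrays, just under the floor of 5.27, which corresponds to a signal of about 22.7. The dimmer Il1rl1 probe set, at 6.27, is the nearest member above it. For the brighter Il33 probe set the signal was 25 and 23.8 before and 52 and 54.1 after thrombin, and 14 and 2 before and 26.2 and 26.5 after TRAP. It was 35.4 and 29.5 before and 3.1 and 14.4 after PTX and TRAP. For the dimmer one it was 20.5 and 33 before and 52.4 and 38.7 after thrombin, 9 and 5.8 before and 12.8 and 27.3 after TRAP, and 15.5 and 4.1 before and 21 and 21.4 after PTX and TRAP. Both probe sets had their highest group mean after thrombin (53.05 and 45.55), and they went opposite ways in the PTX experiment. Signals this low, without detection calls, give no reliable fold, so none is stated.

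Among the 4 kept probe sets, both stimulated arrays lay above both own basal arrays for 2 with thrombin, 4 with TRAP and 3 with TRAP after PTX, and below them for 1 with thrombin, that of Il15. Over all kept probe sets the stimulated arrays lay above in 18.8%, 19.2% and 18.1%, and below in 28.6% with thrombin. Nothing is read from these counts, because the same responses chose the genes.

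The partners of these cytokines were followed through 5 lists of 62 receptor, ligand and signalling genes. Of these, 50 had a probe set with that symbol alone and 30 passed the floor. Socs5, a member of the SOCS family of cytokine signalling inhibitors, rose after all 3 stimuli. Il1r1, the receptor for IL-1, rose after TRAP. By limma with Benjamini-Hochberg adjustment, 1 of 30 was called after thrombin, 2 after TRAP and 1 after PTX and TRAP, all higher. Over all probe sets 4.74%, 3.9% and 2.71% were called in either direction. The median log2 change of the 30 genes was 0.07, 0.13 and 0.12, against -0.04 over all kept probe sets in each response.

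Socs5 had signals of 759 and 661.5 before and 1244.2 and 1280.9 after thrombin, a log2 rise of 0.82 ± 0.11 (limma adjusted p = 0.000664). With TRAP it rose from 945.1 and 902.3 to 1878.3 and 1924.9, by 1.03 ± 0.11 (adjusted p = 0.000156), and after PTX and TRAP from 892.3 and 1025.5 to 2114.9 and 1738.3, by 0.99 ± 0.11 (adjusted p = 0.000231). Stimulated and basal arrays lay apart each time. A dimmer Socs5 probe set moved alike, with log2 differences of 0.92, 1.07 and 0.84.

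Il1r1 had signals of 572.9 and 598.6 before and 1093.2 and 1045 after TRAP, a log2 rise of 0.85 ± 0.14 (limma adjusted p = 0.00303). Its dimmer probe sets measured 0.52 and 0.48 with TRAP, -0.14 and 0.16 with thrombin, and 0.57 and 0.27 after PTX and TRAP. With thrombin the log2 difference of the brightest probe set was 0.28 (limma adjusted p = 0.306), from 687.3 and 536.1 to 741.9 and 738.2. After PTX and TRAP it was 0.54 (limma adjusted p = 0.0518), from 776.9 and 702.9 to 938.2 and 1250.2. That last response of Il1r1 passed the threshold with the array sets as a block, with the mismatched arrays left out, with a pseudocount of 64, a filter at the 60th percentile or median centring, with all 6 basal arrays as the control, and without basal thrombin replicate 1, basal thrombin replicate 2 or replicate 1 of TRAP after PTX. The thrombin response minus the TRAP response of Il1r1 was -0.57 (adjusted p = 0.279), so a difference between the stimuli was not shown.

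The other partners did not pass the main test in any of the 3 responses. Of the TSLP and IL-7 receptor list 7 of 9 genes were kept, with Crlf2, the TSLP receptor chain, at a mean signal of 110 and log2 differences of 0.04, -0.01 and -0.18, and Il7r at 26.6. Of 11 genes of IL-15 receptors and common gamma chain signalling 7 had a probe set with that symbol alone, and only Jak3 was kept, at 69. Il15ra, the gene of IL-15 receptor alpha, had no such probe set and was not measured, nor were Il9, Il21 and Il21r. Il2rb and Il2rg, the beta and common gamma chains that read IL-15, were at 16.5 and 12.1, and Il2ra, the IL-2 receptor alpha chain, was at 7.08, all below the floor. Of 18 genes of the IL-1 family 12 had such a probe set and 4 were kept, and Il1b, Il1rn and Il18 were at 7.57, 2.58 and 9.38. Il1rap, the partner chain of the IL-33 receptor, was at 106 and measured 0.76 after PTX and TRAP (limma adjusted p = 0.0676). It passed with the array sets as a block, median centring, quantile normalization or all 6 basal arrays as the control, and without replicate 1 of the basal pair of TRAP after PTX, TRAP replicate 1 or TRAP replicate 2. None of the 13 kept genes of MyD88 signalling passed, although Peli1, a ubiquitin ligase of this pathway, measured 0.65 with thrombin (adjusted p = 0.118) and passed without basal thrombin replicate 2, which makes 2 calls in place of 1. Cish, a STAT5 target that inhibits cytokine signalling, measured 0.60, 0.77 and 0.61 (limma adjusted p = 0.186, 0.0957 and 0.194), and passed for TRAP with median centring. With all 6 basal arrays as the control, further genes passed, Cish among them for thrombin and TRAP after PTX. Il1rap, Peli1 and Cish are named after their values were seen.

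Tests of the differences between responses called 0 of the 30 genes for thrombin minus TRAP and 0 for TRAP after PTX minus TRAP in limma. Over all probe sets 0.532% and 0.129% were called. Among the 3 basal groups 12 of the 30 passed limma's F test, or 40%, near the 42.2% of all probe sets, so this share is no result about these genes. They were Il1rl2, Irak1, Irak3, Jak1, Jak2, Myd88, Socs5, Socs6, Stat3, Tab3, Tollip and Traf6. Il1rl2, the IL-36 receptor gene, was higher in basal TRAP and basal TRAP after PTX than in basal thrombin by 1.27 and 1.25 (log2), and Socs5 by 0.37 and 0.42. Without basal thrombin replicate 2 the number was 7, with Il1rl2, Jak1, Jak2, Socs6, Stat3, Tollip and Traf6. Myd88 did not pass with the replicate block, without a filter, without the intensity trend, in a fit of the compared arrays alone, with the mismatched arrays left out or in most fits that left out 1 array. With median centring Irak1, Socs5 and Stat3 did not pass, and Socs5 did not without basal thrombin replicate 2. Socs6, Stat3 and Tab3 did not pass without basal thrombin replicate 1, nor Jak2 and Tab3 without basal TRAP replicate 2. Tab3 also did not pass without a filter, without basal TRAP replicate 1 or in a fit of the compared arrays alone.

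**Figure D4:**
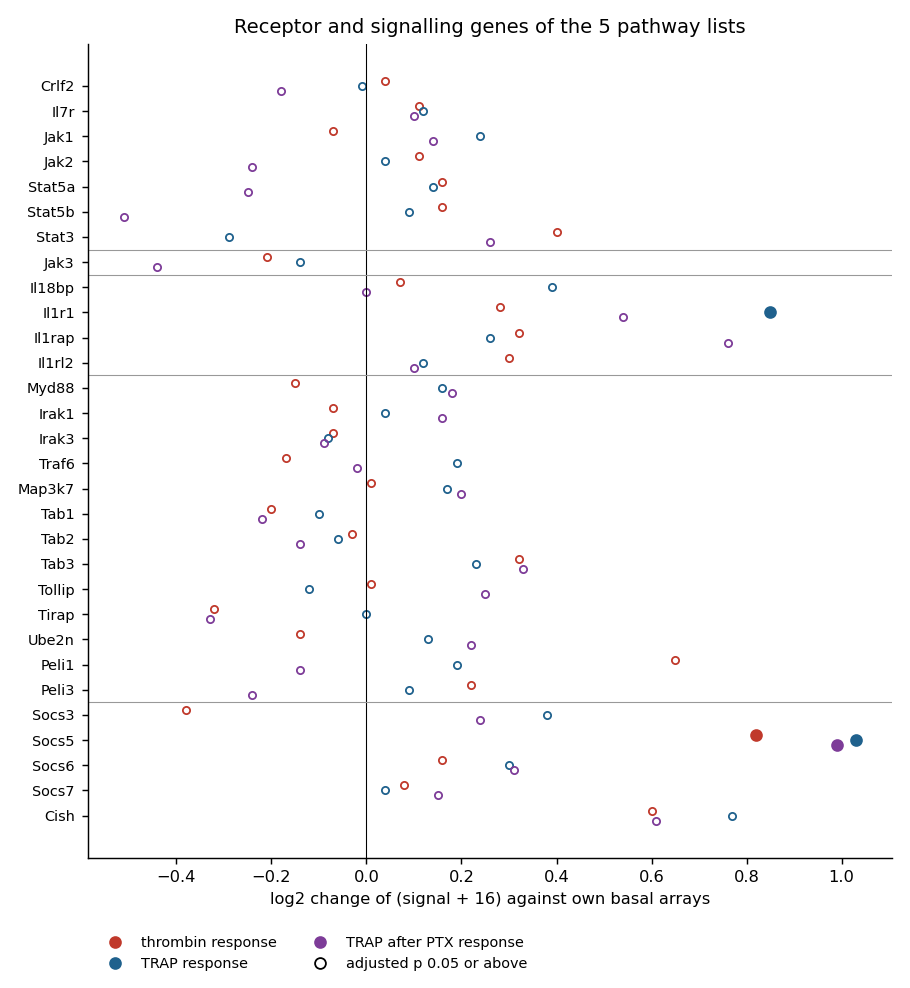
Log2 change of signal + 16 against own basal arrays (x axis) for the 30 kept genes of the 5 lists (y axis, lines divide the lists), by stimulus. Filled points passed the adjusted p threshold of 0.05: Socs5 in all 3 responses (0.82, 1.03 and 0.99) and Il1r1 with TRAP (0.85).

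The genes with the most similar signal over the 12 arrays were found by Pearson's r of log2(signal + 16) among 9903 other genes. The 12 points share experiments, basal levels and array sets, so r is a description. For Tslp they were Dlg1 (r = 0.928), Metrnl (r = 0.928) and Ahr (r = 0.925), the aryl hydrocarbon receptor gene. Their log2 changes with TRAP were 0.32, 0.79 and 0.43, all smaller than that of Tslp. For Il15 they were Irf2bpl (r = 0.931), Synpo (r = 0.91), an actin-associated protein gene, and LOC100912167 (r = 0.904). These genes measured -0.81, -0.75 and -0.43 with thrombin and 0.56, 0.22 and 0.23 with TRAP, against -1.06 and 0.71 for Il15. For Il1rl1 they were Sbno2 (r = 0.931), Sh2b3 (r = 0.925), an adaptor that dampens cytokine receptor signalling, and the amino acid transporter gene Slc7a1 (r = 0.92). Sbno2 changed by 0.85 with thrombin, 0.86 with TRAP and 0.16 after PTX and TRAP, against 0.78, 1.04 and 0.20 for Il1rl1.

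Markers of other cell types were mostly below the floor, with some above it. Ptprc, Itgam and Cd3e of leukocytes had mean signals of 4.28, 1.88 and 9.93, and Kit, Cpa3, Fcer1a and Cma1 of mast cells 7.02, 13.8, 6.47 and 1.77. Pecam1 and Vwf of endothelium were at 4.24 and 7.12, and Epcam and Cdh1 of epithelium at 6.68 and 3.08. All of these are below the floor. Above it were Krt8 and Krt14 of epithelium at 114 and 100, Tpsb2, Gata3 and Rora of the mast cell and group 2 lymphoid list at 39.2, 53.7 and 60.7, Csf1r of leukocytes at 30.8 and Tek of endothelium at 45.4. Of the lists measured, 2 of 8 leukocyte, 3 of 10 mast cell and group 2 lymphoid, 1 of 7 endothelial and 2 of 7 epithelial markers passed it. Cd14, at 408, dominates the leukocyte sum, which was 349.1 to 372.6 before and 460.7 to 504 after TRAP, 609.7 to 679.6 before and 623.5 to 624.8 after thrombin, and 428.9 to 449.3 before and 421.2 to 479.3 after PTX and TRAP. The mast cell sum was 142.7 to 195.1 before and 155.8 to 209.5 after TRAP, 231.5 to 239.8 before and 227.3 to 256.2 after thrombin, and 180.1 to 222.5 before and 148.6 to 216.9 after PTX and TRAP. The epithelial sum was 291.9 to 301.2 before and 326.6 to 349.4 after thrombin, 165.1 to 183.4 before and 185.9 to 209.6 after TRAP, and 207 to 298.7 before and 241.1 to 269.2 after PTX and TRAP. The endothelial sum was 110 to 159.5 before and 88.9 to 112.1 after thrombin, 83.4 to 89.4 before and 86.8 to 88 after TRAP, and 102.2 to 137.2 before and 52.5 to 78.9 after PTX and TRAP. Stimulated and basal arrays thus did not overlap in the leukocyte sum with TRAP or the epithelial sum with thrombin and TRAP. The endothelial sum after PTX and TRAP also lay apart, below its basal arrays, a direction for which no share over all probe sets is given. The smooth muscle sum also lay apart with thrombin, at 15580 to 17200 before and 17790 to 20290 after. Single probe sets often lay apart too, above in 18.8% and below in 28.6% with thrombin and above in 19.2% with TRAP. Nothing is read from these separations. The part of these cell types in the responses was not tested. In cultures measured as a whole, fewer cells with a transcript and less of it per cell cannot be told apart.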

How the data were processed

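RNA of 12 samples was hybridised to 1-colour arrays. The deposited intensity of each probe set is linear, and the submitters' processing notes name GCOS 1.4 for it. The mean without the lowest and highest 2% is about 200 on every array. Detection calls, aligner and genome build are not given in the sources used here.

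Control probe sets (57 of 31099) were left out, log2(signal + 16) was taken, which understates changes of dim genes, and a probe set was kept if its mean log2 signal exceeded the 40th percentile. A single symbol is annotated for 20826 probe sets, several for 436 and none for 9780, and 20758 matched the GRCr8 annotation by Entrez number. A gene is its brightest kept probe set. The 6 groups were fitted together in R 4.3.3 by limma 3.58.1, using lmFit and an intensity trend in eBayes (6 residual degrees of freedom, 2-sided), with Benjamini-Hochberg adjustment over all kept probe sets and a threshold of 0.05. The fit was tested on simulated data with independent noise and equal basal groups. That setting lacks the basal differences and array sets of these data, so it does not test the fit under them. The precision is limited by 2 arrays per group, with a median standard error of 0.16 (log2) for a response.

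Members, lists and alternatives were chosen with earlier results of these data known. A planned test of the members' basal levels was dropped, because the same arrays enter the responses that chose them. Standard errors of members come from this fit. Named genes are the members, pathway genes past the threshold, and the 3 genes most correlated with each member, and others are said to be named after their values were seen.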

Additional observations from a re-analysis of the deposited data

Results flagged for a closer look

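Il15 was lower on both thrombin arrays than on both of their basal arrays and higher on both TRAP arrays than on theirs. The group differences of these experiments thus had opposite signs (thrombin response minus TRAP response, -1.77 on the log2 scale). This difference was not tested, since it is the pattern for which the gene was chosen.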

How the results depend on the processing

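All values are log2 differences of log2(signal + 16) or numbers of calls. With all 6 basal arrays as the control, limma called 6573 probe sets for thrombin, 2570 for TRAP, 2961 for TRAP after PTX and 6843 for thrombin minus TRAP, and 10, 6 and 9 pathway genes for thrombin, TRAP after PTX and thrombin minus TRAP. This control puts the basal difference between experiments into the responses. Il15 then had -0.93 for thrombin and -1.57 for thrombin minus TRAP. Il1rl1 had 0.27, 0.82 and 0.92 for the responses to thrombin, TRAP and TRAP after PTX, -0.55 for thrombin minus TRAP and, with the sign reversed, 0.10 for TRAP after PTX minus TRAP. Tslp had 0.34 for thrombin, 1.65 for TRAP after PTX, -1.47 for thrombin minus TRAP and -0.15 for TRAP after PTX minus TRAP.

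With the array sets as a block, the basal differences of TRAP after PTX from TRAP and from thrombin were -0.20 and -0.40 for Il15, 1.05 and 1.34 for Il1rl1, and 0.04 (reversed) and -0.21 for Tslp. The set effect in this fit comes from the stimulated TRAP arrays alone, since each basal pair lies in a single set. TRAP after PTX minus TRAP was 0.14 for Il15, -0.95 for Il1rl1 and -0.19 for Tslp, and Tslp had 1.97 for TRAP, 1.78 for TRAP after PTX and -1.92 for thrombin minus TRAP. Leaving out the 2 mismatched arrays again gave 0.14 for Il15, -0.95 for Il1rl1 and -0.19 for Tslp in TRAP after PTX minus TRAP. For this difference both settings reduce to the same arrays, so the equal values are no separate check. With the mismatched arrays left out, TRAP after PTX was 0.83 for Il15 and 1.71 for Tslp. That left 166 calls for TRAP after PTX and 9 for its difference from TRAP. Centring each array on its median lowered every basal difference from the thrombin experiment: TRAP and TRAP after PTX then differed from it by -0.39 and -0.41 for Il15, 0.10 and 1.01 for Il1rl1, and -0.43 and -0.84 for Tslp. A pseudocount of 64 gave -0.89 and -1.52 for Il15 (thrombin, thrombin minus TRAP), and 1.52, 1.66 and -1.48 for Tslp (TRAP, TRAP after PTX, thrombin minus TRAP).

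Among counts, array weights gave 1111 for TRAP and 305 for TRAP after PTX, no intensity trend 334 for TRAP after PTX, 23 for thrombin minus TRAP and 0 for TRAP after PTX minus TRAP, no filter 13 for the last, and a fit of the compared arrays alone 576 for thrombin, 260 for TRAP after PTX and 1 for its difference from TRAP. Pathway genes called for TRAP after PTX were 3 with median centring and with array sets as a block, and 2 with a pseudocount of 64, a filter at the 60th percentile, quantile normalization and the mismatched arrays left out, where the main number is 1. Unless given above, the cause was not tested.

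Leaving out each array in turn gave 342 to 918 calls for thrombin, 208 to 759 for TRAP, 149 to 539 for TRAP after PTX, 33 to 140 for thrombin minus TRAP, 0 to 47 for TRAP after PTX minus TRAP and 5878 to 7825 among basal groups. Pathway calls were 1 to 2 for thrombin and TRAP after PTX, 2 for TRAP and 7 to 14 among basal groups. Tslp ranged from -0.03 to 0.13, 1.62 to 1.90 and 1.71 to 2.27 over the 3 responses (thrombin, TRAP, TRAP after PTX), -1.85 to -1.57 for thrombin minus TRAP and -0.05 to 0.51 for TRAP after PTX minus TRAP. Il15 ranged from -1.17 to -0.95, 0.69 to 0.73 and 0.47 to 0.83, then -1.88 to -1.66 and -0.24 to 0.12. Il1rl1 ranged from 0.65 to 0.90, 0.95 to 1.12 and 0.17 to 0.22, then -0.39 to -0.14 and -0.93 to -0.75. Basal TRAP minus thrombin, TRAP after PTX minus thrombin and TRAP after PTX minus TRAP were -0.32 to -0.16, -0.73 to -0.51 and -0.49 to -0.27 for Tslp, -0.31 to -0.09, -0.31 to -0.09 and -0.02 to 0.02 for Il15, and 0.16 to 0.41, 1.10 to 1.35 and 0.88 to 1.00 for Il1rl1.

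Replicate numbers were not used to pair the samples, and the labels do not say if they do. Deviations of same-numbered arrays correlated weakly, with r of 0.134, 0.104 and 0.0217 between stimulated and basal groups of an experiment. With 2 arrays per group these values cannot decide it. With the replicate block the counts were 715 for thrombin, 603 for TRAP, 374 for TRAP after PTX, 82 for thrombin minus TRAP, 26 for TRAP after PTX minus TRAP and 7443 among basal groups, against 882, 727, 505, 99, 24 and 7862 without it. With 2 arrays per group, the values of dim probe sets such as those of Il33 are imprecise.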
